A study of Chlamydomonas reinhardtii with 12 samples.

Results

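Transcripts of 7 antioxidant enzymes were followed in dark-grown cells of the green alga Chlamydomonas reinhardtii with and without phytoene desaturase (PDS), which acts near the start of the carotenoid pathway. The 7 genes were taken by identifier from the 17744 identifiers of the count table: iron superoxide dismutase FSD1, manganese superoxide dismutase MSD1, ascorbate peroxidase APX1, catalase CAT1, the 2-Cys peroxiredoxin PRX1, the glutathione peroxidase homologue GPX5 and VTC2 of ascorbate synthesis. All 7 were found in the table and all were counted in every parental library. The table gives no gene symbols, so the symbols rest on general knowledge of these identifiers and the pairing could not be checked here.

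All cells were in liquid culture, kept for 4 weeks in darkness at 25 °C and labelled as vegetative cells of line CC-3403. The knockout group (PDSKO, 6 libraries) was made with Cas9 ribonucleoprotein and holds PDSKO 1 to 4 of transformant E10, PDSKO 5 of transformant A2 and PDSKO 6 of transformant D2, with the lines read from the titles. These cells grew in TAP, an acetate medium, and were sorted by flow cytometry to remove transformants without a knockout and revertants. The parental group (WT, 6 libraries) grew in the same medium with 10 µg/mL arginine, and no sort is stated for it. Medium and sort therefore went with genotype and cannot be told apart from it. A2 and D2 are 1 library each, and while the WT samples are called independent, no label ties the E10 libraries to separate cultures. The p-values therefore measure the spread between these samples, which may in part be technical. Titles put the libraries in 2 sets, E10 with WT 1 to 3 and A2 and D2 with WT 4 to 6. The number in the titles of WT 1 to 3 differs from that of the labelled line.

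Superoxide dismutases turn superoxide into hydrogen peroxide, and catalase, ascorbate peroxidase, peroxiredoxins and glutathione peroxidases then reduce the peroxide. Ascorbate peroxidase draws on ascorbate, 2-Cys peroxiredoxins and the algal glutathione peroxidase homologues draw on thioredoxin, and catalase needs no reductant. In algae much of the reactive oxygen made in light comes from the chloroplast, where carotenoids quench singlet oxygen, while in darkness respiration in mitochondria is a main source.

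Depth set what could be seen. Totals ran from 6279 to 475103 counts in PDSKO and from 1393032 to 35992976 in WT. One read count was worth 159 CPM (counts scaled to the library total) in PDSKO 2, and 0.0278 CPM in WT 2. A single identifier, Cre07.g323800, took 43.3% of the A2 counts, and CPM values of A2 are given over all counts unless stated. Leaving it out of all totals raises every A2 ratio to WT 4 to 6 by over 1.5 times, and both ratios are given below. The targeted gene PDS1 (Cre12.g509650) had 0 counts in A2 and D2 and 4 counts over the E10 libraries, where 6.11 would come from the mean of WT 1 to 3. From the mean of WT 4 to 6, 22.8 counts would come in A2 but only 1.73 in D2, so the 0 of D2 says little. The gamete homeobox genes GSM1 and GSP1 were at 0 in all 6 PDSKO libraries, against 0 to 2.87 CPM and 1.86 to 13.7 CPM in WT. The floor of 3 counts was 6.31 CPM in A2 and higher in the other PDSKO libraries, so these zeros say little. Poisson and Wilson intervals below are 95% intervals and cover counting error only. Less RNA per cell and fewer cells of a kind cannot be told apart in such bulk samples.

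**Figure D1:**
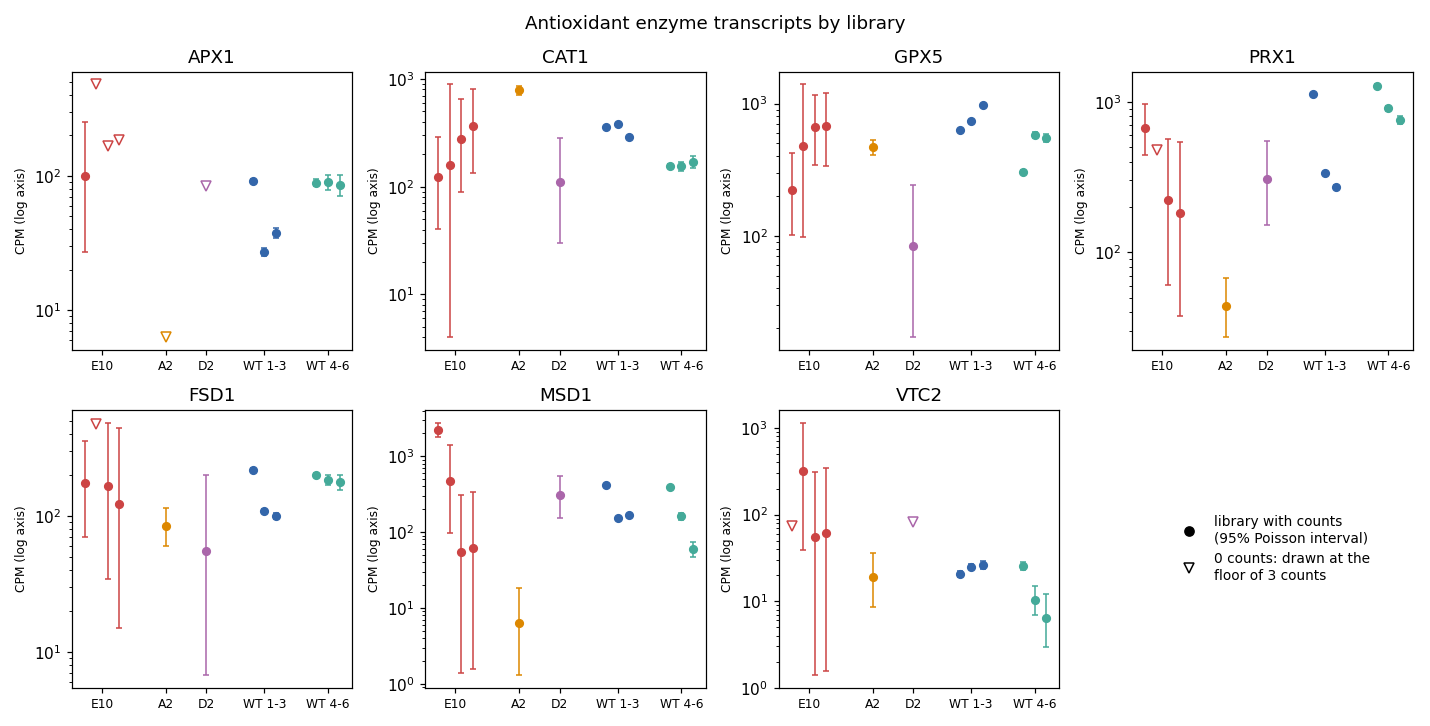
Each panel shows the level of 1 transcript in CPM on a log axis, with 1 point per library for E10, A2, D2, WT 1 to 3 and WT 4 to 6 and bars for 95% Poisson intervals. Open triangles mark libraries with 0 counts, drawn at the level of 3 counts. PRX1 and APX1 of A2 sit far below all WT libraries, CAT1 of A2 sits above them, and MSD1 of PDSKO 1 is the highest point of its panel.

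FSD1 (Cre10.g436050), the plastid superoxide dismutase, had 173, 0, 166 and 122 CPM in PDSKO 1 to 4 of line E10, 84.2 CPM in A2 and 55.5 CPM in D2, against 219, 108 and 99.8 CPM in WT 1 to 3 and 200.03, 184 and 177 CPM in WT 4 to 6. Both A2 and D2 lay below all 3 libraries of WT 4 to 6, while E10 overlapped WT 1 to 3. The same held for APX1, PRX1 and many further identifiers of the antioxidant system, PRX2, MSD2 and DHAR1 among them. The share of all identifiers that lay so was not computed, and their median log2 fold change was -0.92. A value of 0 in the shallow D2 library says little here. DHAR1 and APX1 had 0 counts in D2, where 1.84 and 3.16 would come from the mean of WT 4 to 6. The A2 level was 0.450 times the mean of WT 4 to 6 (Poisson interval 0.322 to 0.613), or 0.763 times without Cre07.g323800, and that of D2, from 2 counts, was 0.297 times (0.0359 to 1.07). The difference of A2 and D2 from WT 4 to 6 was -1.54 ± 0.93 (log2 fold change ± SE) and did not pass the test (edgeR adjusted p = 0.242). The 12 counts of E10 stood where 11.6 would come from the mean of WT 1 to 3.

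MSD1 (Cre02.g096150), the mitochondrial manganese superoxide dismutase, was the most uneven member. It had 2251, 478, 55.2 and 61.2 CPM in PDSKO 1 to 4, 6.31 CPM in A2 and 305 CPM in D2, against 424, 152 and 169 CPM in WT 1 to 3 and 390, 161 and 59.6 CPM in WT 4 to 6. The high value rests on 91 counts in PDSKO 1 (Poisson interval 1812 to 2764 CPM), and the other 3 E10 libraries together had 123 CPM from 5 counts. Summed over E10, MSD1 was 4.77 times the mean of WT 1 to 3 (3.86 to 5.82), but 0.495 times without PDSKO 1 and 7.38 times without WT 1. Line A2 lay below every library of WT 4 to 6 and D2 lay within their range. A2 had 3 counts, or 0.0310 times the mean of WT 4 to 6 (0.00639 to 0.0906), or 0.0529 times without Cre07.g323800 and 0.0573 times without WT 4. D2 had 11 counts, or 1.498 times that mean (0.748 to 2.68), and 2.77 times without WT 4. With A2 alone the difference from WT 4 to 6 passed (-4.94 ± 1.098, edgeR adjusted p = 0.00613), in a fit where 22.6% of identifiers did, and with D2 alone it was -0.35 ± 0.83 (adjusted p = 0.728). The contrast of both lines did not pass with edgeR (-1.62 ± 1.17, adjusted p = 0.334), though limma-voom called it lower (-3.83, adjusted p = 0.0458) among 5.71% of identifiers, and neither did that of E10 (1.93 ± 1.33, edgeR adjusted p = 0.994). For all PDSKO libraries it was 0.86 ± 0.88 (edgeR adjusted p = 0.591), and without PDSKO 1 the sign turned, to -1.59 over all libraries and -2.14 in E10.

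APX1 (Cre02.g087700), an ascorbate peroxidase, was counted in 1 of the 6 PDSKO libraries. It had 98.9, 0, 0 and 0 CPM in PDSKO 1 to 4 and 0 in A2 and D2, against 91.0, 27.1 and 37.8 CPM in WT 1 to 3 and 88.6, 89.8 and 84.7 CPM in WT 4 to 6. In A2 41.7 counts would come from the mean of WT 4 to 6 and none was seen, so the level was at least 13.9-fold lower by the floor of 3 counts in that library. Without Cre07.g323800 in the totals this bound was 8.21-fold. D2 says little alone, since 3.16 counts would come from that mean. The E10 libraries held 4 counts where 4.22 would come from the mean of WT 1 to 3, all of them in PDSKO 1, and 1.52 times the mean of WT 2 and WT 3.

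CAT1 (Cre09.g417150), a catalase, was the member with the highest A2 level relative to the parental cells. It had 124, 159, 276 and 367 CPM in PDSKO 1 to 4, 783 CPM in A2 and 111 CPM in D2, against 355, 383 and 287 CPM in WT 1 to 3 and 156, 154 and 170 CPM in WT 4 to 6. The A2 value, from 372 counts, was 4.89 times the mean of WT 4 to 6 (Poisson interval 4.41 to 5.42), or 8.27 times without Cre07.g323800, and the D2 value, from 4 counts, was 0.693 times (0.189 to 1.77). The 17 counts of E10 stood where 27.7 would come from the mean of WT 1 to 3. For A2 and D2 together the difference from WT 4 to 6 was 1.54 ± 0.93 (edgeR adjusted p = 0.247), and it was 2.24 ± 0.44 for A2 alone (called, adjusted p = 0.00305, where 22.6% of identifiers passed) and -1.58 ± 0.76 for D2 alone (adjusted p = 0.269). With 1 knockout library the fit assumes that it varies as the WT libraries do.

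PRX1 (Cre06.g257601), a plastid 2-Cys peroxiredoxin, fell in A2 and D2. It had 668, 0, 221 and 184 CPM in PDSKO 1 to 4, 44.2 CPM in A2 and 305 CPM in D2, against 1128, 336 and 272 CPM in WT 1 to 3 and 1283, 907 and 756 CPM in WT 4 to 6. A2 and D2 both lay below every library of WT 4 to 6, as they did for FSD1 and APX1, and the share of all identifiers that lay so was not computed. The A2 level was 0.0450 times the mean of WT 4 to 6 (Poisson interval 0.0279 to 0.0688), or 0.0764 times without Cre07.g323800. The D2 level was 0.311 times that mean (0.155 to 0.556). The E10 libraries lay between 0 and 668 CPM and overlapped the WT 1 to 3 libraries. Summed over E10, PRX1 was 0.724 times the mean of WT 1 to 3 (0.501 to 1.01). Of its 34 counts 27 were in PDSKO 1, and the ratio was 0.297 without PDSKO 1 and 1.38 without WT 1.

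GPX5 (Cre10.g458450), a glutathione peroxidase homologue known in this alga for its induction by singlet oxygen, differed between the lines A2 and D2 in its level relative to the parental mean, without a test of that difference. It had 223, 478, 663 and 674 CPM in PDSKO 1 to 4, 469 CPM in A2 and 83.2 CPM in D2, against 632, 744 and 972 CPM in WT 1 to 3 and 302, 581 and 550 CPM in WT 4 to 6. A2 stood at 0.983 times the mean of WT 4 to 6 (Poisson interval 0.858 to 1.12), or 1.66 times without Cre07.g323800, and D2, from 3 counts, at 0.174 times (0.0359 to 0.509). The pooled contrast of both lines was -0.77 ± 0.95 (edgeR adjusted p = 0.586), and that of D2 alone was -3.61 ± 0.91 (called, adjusted p = 0.0234). In the fit of D2 alone 7.64% of identifiers passed, and the median over all identifiers tested was -7.58. In E10 the difference from WT 1 to 3 was -0.52 ± 0.46 (adjusted p = 0.994).

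VTC2 (Cre13.g588150), the GDP-L-galactose phosphorylase that commits GDP-L-galactose to ascorbate, was at the limit of these depths. It had 0, 319, 55.2 and 61.2 CPM in PDSKO 1 to 4, 18.9 CPM in A2 and 0 in D2, against 20.7, 25.0 and 26.0 CPM in WT 1 to 3 and 25.5, 10.4 and 6.46 CPM in WT 4 to 6. The 319 CPM of PDSKO 2 are 2 counts, with a Poisson interval of 38.6 to 1151 CPM. Line A2 had 9 counts, 1.34 times the mean of WT 4 to 6 (0.613 to 2.55), 2.29 times without Cre07.g323800 and 2.24 times without WT 4, and in D2 a parental level would give 0.510 counts. The pooled contrast of A2 and D2 was 0.14 ± 0.96 (edgeR adjusted p = 0.928).

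A2 and D2 were set against the parental libraries of their own title set. Of the 7 members 2 fell, APX1 and PRX1, and none rose. Over all 8042 identifiers tested 10.9% passed the threshold and 7.49% passed as lower. PRX1 differed by -3.46 ± 0.92 on the log2 scale (edgeR adjusted p = 0.0282). APX1, at 0 in both lines, was at least 14.9-fold lower by the floor of 3 counts over both libraries (edgeR adjusted p = 0.0174), or 9.26-fold with Cre07.g323800 left out of the totals. With 1 line alone PRX1 differed by -4.48 ± 0.65 with A2 and by -2.70 ± 0.64 with D2. Over all identifiers tested the median was -1.30 in the A2 fit and -7.58 in the D2 fit. Each of these fits has 1 knockout library and both use WT 4 to 6, so they are not independent. APX1 was at 0 in each line, though in D2 only 3.16 counts would come from the mean of WT 4 to 6. With both lines together, neither the PRX1 nor the APX1 call held without WT 4, WT 5 or WT 6. The edgeR adjusted p was then 0.162, 0.202 and 0.0752 for PRX1 and 0.0970, 0.0842 and 0.0582 for APX1. The PRX1 call also ended with RLE scaling (-2.85, adjusted p = 0.0574), with library totals alone (-2.57, adjusted p = 0.108), and in the 4-group fit (-2.58, adjusted p = 0.108), and that of APX1 with limma-voom (adjusted p = 0.0606). Both calls ended against all 6 WT libraries (adjusted p = 0.0895 for PRX1 and 0.0506 for APX1). PRX1 stayed lower in each of these fits. Over the 7 members the median log2 fold change was -1.54 and 5 were negative, while all identifiers tested had a median of -0.92. The summed count of 3 antenna transcripts (LHCA2, LHCBM5 and LHCB4) was also lower in these lines, at 1162 CPM in A2 and 5435 CPM in D2, against 13806 to 18963 CPM in WT 4 to 6, and its part in the result was not tested.

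**Figure D2:**
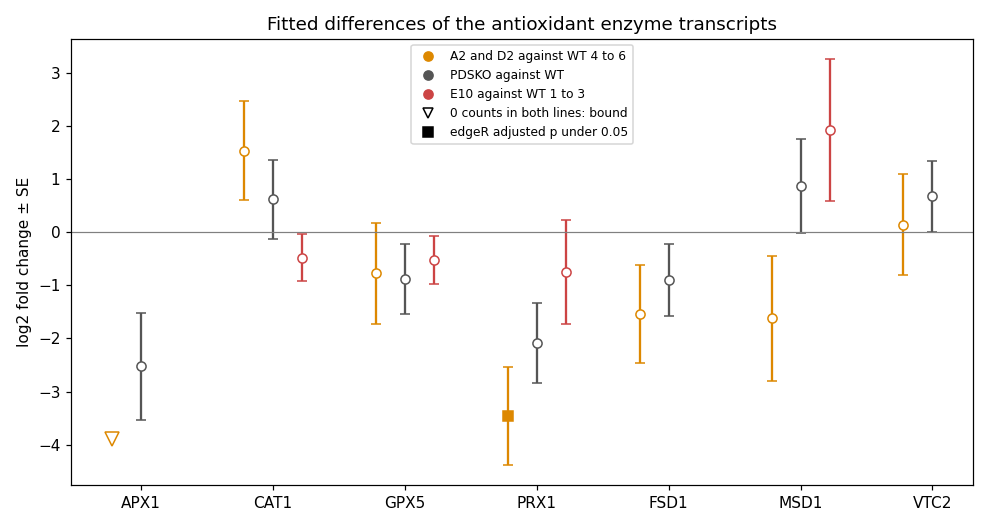
Points are log2 fold changes with bars for the standard error, for A2 and D2 against WT 4 to 6, all PDSKO against all WT, and E10 against WT 1 to 3, where the transcript was tested. Filled squares passed the edgeR test; the open triangle marks APX1 at its bound for A2 and D2, where both libraries had 0 counts. PRX1 of A2 and D2, at -3.46, is the only filled point, and CAT1 and MSD1 change side between contrasts.

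Across all 12 libraries no member passed, as 0% of the 4915 identifiers did at an adjusted p under 0.05 with edgeR, 1006 had an unadjusted p under 0.05, DESeq2 called 413 and limma-voom 0. The largest negative values were those of APX1 (-2.52 ± 1.01, edgeR adjusted p = 0.158) and PRX1 (-2.08 ± 0.76, adjusted p = 0.131). FSD1 had -0.89 ± 0.68 and GPX5 -0.88 ± 0.65, while CAT1 had 0.62 ± 0.75 and VTC2 0.67 ± 0.66 (edgeR adjusted p 0.447 to 0.657). The median was -0.88 over the members and -0.38 over all 4915 identifiers. Without PDSKO 1, the E10 library with the highest MSD1, PRX1 and APX1 levels of its line, PRX1 (-3.19 ± 0.83) and APX1 (at 0 in the 5 libraries left) were both called lower, each with an edgeR adjusted p of 0.0400, where 8.32% of identifiers passed as lower. CAT1 turned to -1.43 without A2.

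In line E10 against WT 1 to 3 only 449 identifiers had enough counts to be tested, among them CAT1, MSD1, GPX5 and PRX1, and 0% passed with edgeR, with 6 at an unadjusted p under 0.05 1 call by DESeq2 and 0 by limma-voom. PRX1 had -0.75 ± 0.97 and CAT1 -0.48 ± 0.43 (edgeR adjusted p = 0.994 for each). Whether a member differed from its parental set more in A2 and D2 than in E10 was tested in a fit of all libraries, in which 0.061% of identifiers passed. No member did: the difference of the contrasts was -1.19 ± 1.36 for PRX1 (edgeR adjusted p = 0.620), 3.56 ± 1.21 for CAT1 (adjusted p = 0.114) and -1.90 ± 1.67 for MSD1 (adjusted p = 0.509), and APX1 had an adjusted p of 0.128. The CAT1 difference passed without D2 (4.25, edgeR adjusted p = 0.0293), where 3.6% of identifiers did, and that of APX1 without WT 1 (adjusted p = 0.0437), where 5.33% did.

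The parental libraries differed among themselves as much as many of these contrasts. PRX1, FSD1 and APX1 shared a pattern: each was lowest in WT 2 and WT 3, where PRX1 had 336 and 272 CPM, and higher in WT 1 and WT 4 to 6, where it had 756 to 1283 CPM. Over the 6 WT libraries Pearson's r of log2(CPM + 1) was 0.985 for FSD1 and PRX1, 0.945 for APX1 and FSD1 and 0.923 for APX1 and PRX1. Among the 27 other identifiers compared, that most like PRX1 and FSD1 was Cre05.g233900 (APX4), with r of 0.987 and 0.997. The libraries fall into the 2 clusters just named, so these values mostly restate that split, and all points share library depth. The 3 antenna transcripts split in the same way, at 1947 and 1935 CPM in WT 2 and WT 3 and 13806 to 18963 CPM in the other WT libraries, and their part in the pattern was not tested.

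CAT1 and GPX5 varied differently, both being higher in every library of WT 1 to 3 (287 to 383 CPM and 632 to 972 CPM) than in any of WT 4 to 6 (154 to 170 CPM and 302 to 581 CPM). Such a split was not particular to them. Of the further identifiers of the antioxidant system, PRX2, MDAR1, GSR1, GSR2 and SAK1 were higher in the same way, and PRX5 and GMP1 lower. The share of all identifiers that split so was not computed. VTC2 was lowest in WT 5 and WT 6, and MSD1 ranged from 59.6 CPM in WT 6 to 424 CPM in WT 1. The coefficient of variation over the 6 WT libraries was 29.9% for FSD1, 35.2% for GPX5, 41.6% for CAT1, 41.9% for APX1, 44.7% for VTC2, 52.7% for PRX1 and 64.7% for MSD1. No member passed between WT 1 to 3 and WT 4 to 6, where 11.1% of 13040 identifiers did: CAT1 had 0.69 ± 0.38 (edgeR adjusted p = 0.292), PRX1 -1.02 ± 0.63 (adjusted p = 0.350) and APX1 -1.07 ± 0.54 (adjusted p = 0.254). Without WT 1, PRX1 (-2.18), APX1 (-1.96) and FSD1 (-1.37) were called lower in WT 2 and WT 3 than in WT 4 to 6, with edgeR adjusted p of 0.000324, 0.00148 and 0.00540. In that fit 17.9% of identifiers passed as lower, and these 3 had already been seen to be low in WT 2 and WT 3.

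**Figure D3:**
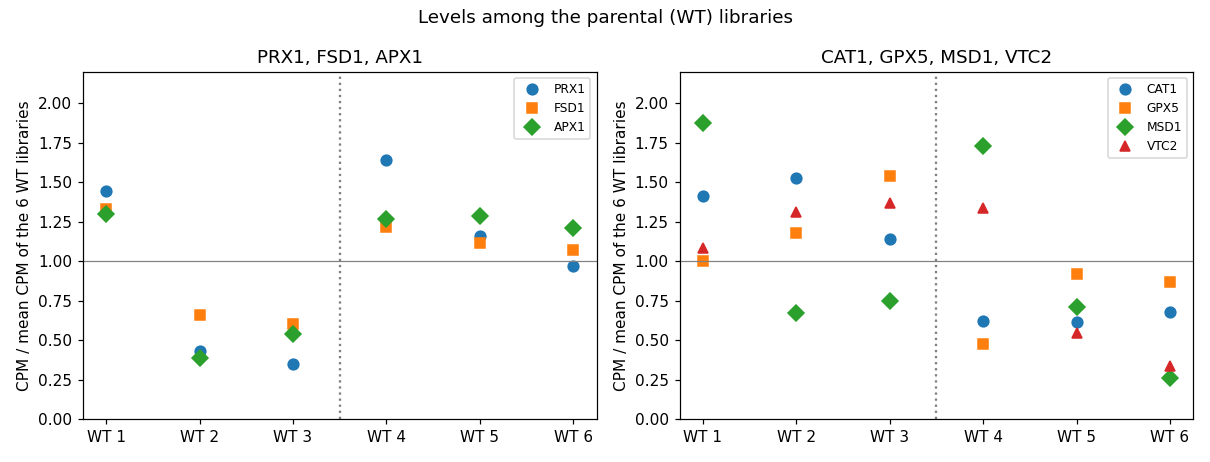
The level of each transcript in each of the 6 WT libraries is drawn as a ratio to its own mean over them, with a dotted line between the title sets. PRX1, FSD1 and APX1 are low together in WT 2 and WT 3, while CAT1 stands higher in WT 1 to 3 than in WT 4 to 6.

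In both genotypes of the first title set the library without a number after its title stood apart in PRX1 and MSD1. PRX1 was 3.88 times higher in PDSKO 1 than in PDSKO 2 to 4 pooled, and 3.54 times higher in WT 1 than in WT 2 and WT 3 pooled. MSD1 was 18.3 times higher in PDSKO 1 and 2.71 times higher in WT 1, and FSD1 1.41 and 2.07 times. CAT1 was 0.420 and 0.998 times and GPX5 0.349 and 0.782 times. VTC2 had 0 counts in PDSKO 1 and 4 in PDSKO 2 to 4 summed, and was 0.818 times in WT 1. The E10 ratios rest on few counts in PDSKO 1 against PDSKO 2 to 4 summed. These were 27 against 7 for PRX1, 91 against 5 for MSD1, 7 against 5 for FSD1, 5 against 12 for CAT1 and 9 against 26 for GPX5. APX1 was at 0 in PDSKO 2 to 4 and had 3.02 times more in WT 1 than in WT 2 and WT 3. The antenna transcripts were higher in the same libraries, at 7791 CPM in PDSKO 1 against 1433 to 4471 CPM in PDSKO 2 to 4. This was noticed in the data and the sources used here do not say how these libraries differ.

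Members were also set against a second gene of the same family, since the share of a pair does not depend on the library total. PRX1 made up 13.7% of the PRX1 and PRX2 (Cre02.g114600, a further 2-Cys peroxiredoxin) counts in A2 (Wilson interval 9.16 to 20.1%) and 37.9% in D2 (22.7 to 56.0%), against 60.6%, 52.2% and 48.7% in WT 4, WT 5 and WT 6. It made up 32.1% in PDSKO 1, 0 of 4 counts in PDSKO 2, 4 of 25 counts in PDSKO 3 and 10.7% in PDSKO 4, against 41.6%, 17.8% and 16.3% in WT 1 to 3. PRX2 itself did not pass in A2 and D2 (-1.63 ± 0.80, edgeR adjusted p = 0.156). If the copies share sequence, reads of both were discarded by the authors, so the split is uncertain.

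MSD1 made up 93.8% of the MSD1 and MSD2 (Cre13.g605150) counts in PDSKO 1 (Wilson interval 87.2 to 97.1%), 4.11% in A2 (1.41 to 11.4%) and 64.7% in D2 (41.3 to 82.7%), against 10.6 to 66.3% in the WT libraries. A2 was thus below and PDSKO 1 above all of them, as was PDSKO 2 at 75.0%, though from 3 of 4 counts (30.1 to 95.4%). The PDSKO mean was 43.3 ± 39.0% and the WT mean 35.3 ± 20.6% (SD, n = 6 each), and the difference of the means was smaller than either SD. The PDSKO mean gives each library the same weight, though 4 are of line E10 and the pair had 9 counts in PDSKO 3 and 9 in PDSKO 4. CAT1 held 372 of the 374 counts of CAT1 and CAT2 (Cre01.g045700) in A2 (99.5%, Wilson interval 98.1 to 99.9%), against 86.2 to 97.1% in WT 1 to 6. The A2 interval overlapped that of WT 6 (94.2 to 98.6%). The other PDSKO libraries had only 1 to 7 counts of this pair.

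**Figure D4:**
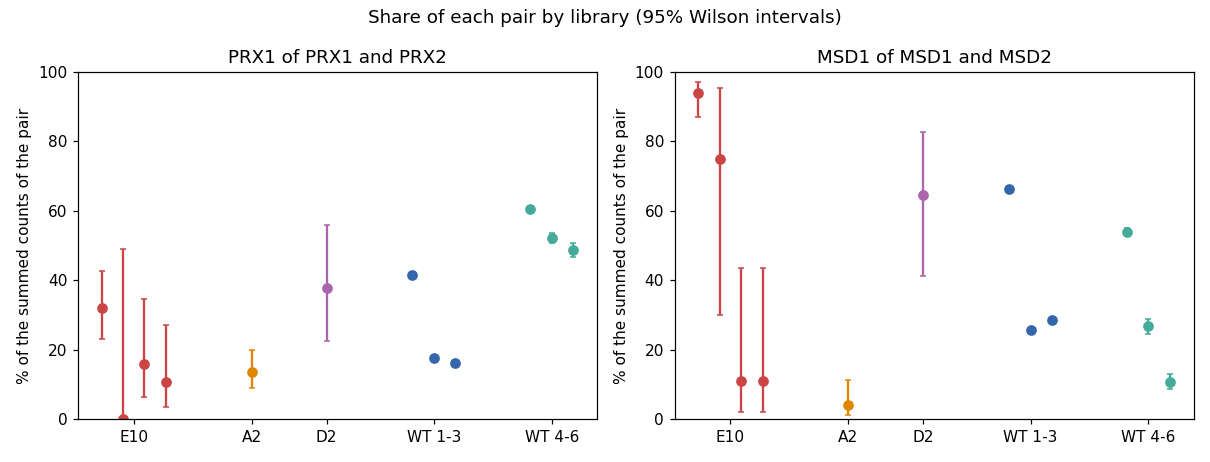
The percentage of a pair's summed counts that belongs to PRX1 (left) or MSD1 (right) is drawn for each library, with 95% Wilson intervals. For PRX1 the A2 and D2 points, 13.7% and 37.9%, lie below the WT 4 to 6 points of 48.7 to 60.6%; for MSD1 the PDSKO points run from 4.11 to 93.8%.

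Of 23 further identifiers of the antioxidant system, 20 were tested in A2 and D2 against WT 4 to 6. None rose and 4 fell, where 7.49% of all identifiers passed as lower, and their median log2 fold change was -1.49 beside -0.92 over all identifiers. The 4 were a further ascorbate peroxidase, APX4 (Cre05.g233900), the plastid thioredoxins TRXx (Cre01.g052250) and TRXf2 (Cre05.g243050), and GMP1 (Cre16.g672800), GDP-mannose pyrophosphorylase, which acts before VTC2 in ascorbate synthesis. APX4 and TRXx were at 0 in both lines, at least 6.30-fold and 5.87-fold lower by the floor over both libraries, or 3.89-fold and 3.63-fold without Cre07.g323800 (edgeR adjusted p = 0.0279 and 0.0285). GMP1 had 21.0 CPM in A2 and 55.5 CPM in D2, against 343, 528 and 482 CPM in WT 4 to 6 (-4.27 ± 1.04, edgeR adjusted p = 0.0216). TRXf2 had 1 count in A2 and D2 together, 0.0359 times the mean of WT 4 to 6 with a Poisson interval of 0.000908 to 0.1997 times (adjusted p = 0.0352). GMP1 also differed between the parental sets, being lower in WT 1 to 3 (-2.75 ± 0.56, edgeR adjusted p = 0.00895). In that comparison of the parental sets 2 of 21 listed identifiers passed, where 11.1% of all identifiers tested did. The other was the peroxiredoxin PRX5 (Cre01.g014350, -2.09 ± 0.57, edgeR adjusted p = 0.0444). In A2 and D2 none of the 4 was called without WT 4, WT 5 or WT 6, nor with all 6 WT libraries, and limma-voom called GMP1 alone of them.

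Among those that did not pass, NTRC (Cre01.g054150), the plastid NADPH thioredoxin reductase that can reduce 2-Cys peroxiredoxins, had 657 CPM in A2 and 55.5 CPM in D2, against 46.5, 39.5 and 53.8 CPM in WT 4 to 6 (3.04 ± 1.02, edgeR adjusted p = 0.0576). The high value is that of A2, and NTRC was called higher with RLE scaling, with DESeq2, with no filter, without Cre07.g323800 and with A2 alone. Of the second family members, MSD2 had -1.83 ± 0.89, CAT2 -2.14 ± 1.27 and MSD3 -0.49 ± 1.00 (edgeR adjusted p 0.151 to 0.761). APX2 was at 0 in both lines with an adjusted p of 0.136, while GPX3, MSD4 and MSD5 had too few counts to be tested there. The genes of the ascorbate and glutathione cycle, MDAR1, DHAR1, GSR1 and GSR2, lay between -1.36 and 0.81 (edgeR adjusted p 0.346 to 0.878). Across all 12 libraries 0 of the 16 tested identifiers of this list passed with edgeR, and 0 of 2 in E10.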

How the data were processed

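The authors made CEL-Seq libraries, in which RNA is barcoded, pooled, amplified by in vitro transcription and read at transcript 3' ends. Per the labels' protocols, reads were aligned to transcriptome release 281_v5.6 with BWA MEM, those with several places were dropped and the rest counted with MapAndGo, and the deposited values are raw counts per identifier. The submitters' processing notes also name edgeR. The sources used here do not say if molecular identifiers were used in counting. All 12 columns were given to samples by title.

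Counts were tested with edgeR 4.0.16 (R 4.3.3): filterByExpr and TMM factors, then estimateDisp and the quasi-likelihood fit and test (two-sided), with Benjamini-Hochberg adjustment over all identifiers tested at 0.05; the SE is the log2 fold change over the root of F. Fits were made for all libraries by genotype, for each title set, for the 6 WT libraries by title set, and in 4 groups for the difference of contrasts. CPM, pair shares, Poisson and Wilson intervals and the floor of 3 counts were computed with Python 3.11.15 and scipy 1.17.1. The share of identifiers called in single-line and leave-one-out fits, and line ratios with 1 library left out, were added after seeing values. An expected count is the parental mean CPM times a line's total. All 7 members passed the filter on low counts except in the E10 fit, where 4 did. The text names all members, their second family copies and listed pathway identifiers past the threshold; NTRC, the ascorbate and glutathione cycle genes, the antenna sum and the comparison by title suffix were added after seeing values. Members and lists were chosen with earlier results of these data known. RefSeq (v5.5) matched 17742 identifiers and gives no symbols; each member has 1 transcript there. Alternatives were DESeq2 1.42.0, limma-voom (limma 3.58.1), other scalings and filters, a replicate block, other sample sets and each library left out.

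Libraries of a group differed beyond sampling noise (lowest chi-square per degree of freedom 3.95), so none was counted as a repeat. In the E10 comparison deviations from the group mean of same-numbered libraries correlated at 0.715, 0.233 and 0.219, each over 0.1. By that rule the numbers were taken to pair them there, from the data and not from the labels. The E10 results given above are nevertheless from the fit without pairing. The replicate block was run there only as an alternative, and it changed no call. That pairing is uncertain, since PDSKO 2 correlated best with WT 3 and PDSKO 3 with WT 2. The values were 0.0394 and -0.0563 in the A2 and D2 comparison, and the lowest over all 12 libraries was -0.0926. The numbers were not taken to pair libraries in those comparisons.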

Additional observations from a re-analysis of the deposited data

Results flagged for a closer look

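In 21 groups of 4 or 6 libraries (7 members in PDSKO, E10 and WT) 3 values stood far from the others of their group. The rule flags about 1 in 20 independent groups by chance where values are normally distributed, and these groups overlap, since E10 is part of PDSKO. CPM from a few counts at unequal depth are not so distributed. A group with counts in 1 library alone is always flagged, as for APX1, so that rate does not hold here. APX1 had 98.9 CPM in PDSKO 1, and the other libraries had 0, both within E10 and within PDSKO. MSD1 had 2251 CPM in PDSKO 1, against 6.31 to 478 CPM in the other PDSKO libraries. VTC2 had 319 CPM in PDSKO 2, which is 2 counts of 6279. PDSKO 1 had the highest total of the E10 libraries, 40429 counts. No member differed between the A2 and D2 contrast and the E10 contrast by the test of that difference.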

How the results depend on the processing

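Of 492 log2 fold changes of members under alternatives 432 kept direction and side of the threshold, 14 lost the call, 12 gained it and 34 turned sign. Most of the 492 were not called to begin with. The only member calls in the fits reported were APX1 and PRX1 in A2 and D2 against WT 4 to 6. These calls held in 8 and 6 of 14 alternatives each, and all the lost calls were theirs. Where no value above shows why, the cause was not tested. Depth limits E10 and D2 most. Without a replicate block 2 members were called in A2 and D2 against WT 4 to 6; with the block 0 members (adjusted p = 0.832 for PRX1 and APX1), 0 listed pathway identifiers and 18 identifiers in all were. Members called there were 1 with RLE scaling, with library totals alone and in the 4-group fit, and 0 against all 6 WT libraries, with 0 to 4 over left-out libraries. Identifiers called, 874 in the fit reported, were 512 with library totals alone, 1470 with no filter, 459 with limma-voom, 13 against all WT libraries and 13 to 2486 over left-out libraries. Calls were 272 higher and 602 lower with TMM and 438 higher and 342 lower with RLE scaling, as the median of all identifiers was -0.92 and -0.42 under these scalings.

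For PDSKO against WT, identifiers called were 164 with RLE scaling, 4 with library totals alone, 1257 with no filter, 413 with DESeq2, 69 with the replicate block, 1 with E10 summed and 0 to 632 over left-out libraries; members called were 1 (PRX1) with no filter and 0 to 2 over left-out libraries. In this comparison the numbers did not pair the libraries, and each of PDSKO 1, 2, 3 and 5 correlated best with its own number. For E10 DESeq2 called 1 identifier, left-out libraries gave 0 to 1, and the replicate block changed no call. Between WT sets DESeq2 called 2240 identifiers and left-out libraries gave 1119 to 3288, with 0 to 3 members. For the difference of contrasts 3 identifiers became 0 with RLE scaling and with library totals alone, and 0 to 243 over left-out libraries, with 0 to 1 members.

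Signs turned for PDSKO against WT in CAT1 (-0.39 with no filter, -0.19 with limma-voom, -0.48 with the block, -1.43 to 0.66 over left-out libraries), MSD1 (-0.34, -1.06, -0.65 and -1.59 to 1.35) and VTC2 (-0.36 with no filter, -0.42 without the 2 shallowest E10 libraries). For A2 and D2 VTC2 had -0.14 with no filter, -0.56 against all WT libraries and -8.94 to 0.54 over left-out libraries, and CAT1 -1.58 to 2.24. MSD1 had -2.14 to 2.90 over left-out libraries in E10, and between WT sets -0.0196 with limma-voom and -0.77 to 0.84. In the difference of contrasts GPX5 had -0.0367 with library totals alone and -1.22 to 2.01 over left-out libraries, VTC2 -0.0656 with RLE scaling, -1.14 with library totals alone and -10.35 to 1.29, FSD1 -1.12 to 0.45, MSD1 -5.46 to 1.30 and PRX1 -2.41 to 0.37. Leaving Cre07.g323800 out of the totals moved 2 of 42 group means of members by more than their SD. A2 by itself has no SD and is not among the 42, though its levels moved most, as for CAT1 from 783 to 1380 CPM. Most of these groups do not hold A2, and A2 with D2 has a wide SD for several members.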
